A study of Mus musculus with 12 samples.

Results

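Immediate early genes are transcribed within minutes of a stimulus, without new protein synthesis, and their transcripts decay quickly. Here 10 of them, Fos, Fosb, Jun, Junb, Atf3, Egr1, Egr2, Nr4a1, Ier2 and Dusp1, were read in mouse mammary tissue from every probe set that the array's annotation assigns to that gene alone. These were 12 probe sets of 10 genes, of 18194 genes named in this way. Of the members, 8 had 1 probe set, and Jun and Egr2 had 2 each. A filter on low signal kept 31526 probe sets with a mean log2 signal of at least 6.04, and all 12 member probe sets passed it, Fosb only just.

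The study measured mammary tissue collected 6 days after a mating plug, in early pregnancy, from 12 mice whose strain background mixed C57BL/6 with FVB and 129, 3 mice of each of 4 genotypes. The genotypes differ in intact alleles of Stat5a and Stat5b, which encode transcription factors that act downstream of the prolactin receptor. Single-Stat5b mice (labelled Stat5abnull/Stat5a-) kept 1 Stat5b and 0 Stat5a alleles, and single-Stat5a mice (Stat5abnull/Stat5b-) kept 1 Stat5a and 0 Stat5b alleles. Stat5a-/- mice kept 2 Stat5b and 0 Stat5a alleles, and Stat5ab+/null mice kept 1 of each. All 4 genotypes lack at least 2 of the 4 Stat5 alleles by these labels, and no comparison with wild-type tissue is made. The treatment text of the labels describes an Mx1-Cre transgene, whose promoter is switched on by interferon and PolyIC, and the sample descriptions speak of sorted cells. By the series design the samples are whole tissue, and neither text says whether these mice were injected. The labels do not say more than that the samples are separate mice, so each p-value measures only the spread between these samples.

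In the classical order of the response, growth factor or stress signals reach MAP kinases, which act on SRF with its ternary complex partners and on CREB at promoters that are already open. FOS and JUN family proteins pair through leucine zippers to form AP-1, and EGR proteins are zinc finger activators. DUSP1 removes phosphate from MAP kinases and so closes the loop. In the mammary gland these genes are known for their response to growth factors and, in tissue taken for RNA, to handling and dissociation.

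The promoters of 4 members are shown because Dusp1 was the member whose array-to-array pattern was nearest to that of Fos, because the probe sets of Jun disagreed between the array sets, and because Junb had the largest fall between them, as described below. Each sequence covers the 250 bases before the annotated start in RefSeq (GRCm38.p6), written 5′ to 3′ on the gene's strand. Capitals mark matches to any of TGACGTCA (the full CRE, the site of CREB and ATF proteins), TGACG (its core, contained in the full site), TGACATCA (the AP-1 variant known from the Jun promoter), TGACTCA (the classical AP-1 site) and TATAAA, each searched on both strands.
Fos, chr12:85473640-85473889, plus strand: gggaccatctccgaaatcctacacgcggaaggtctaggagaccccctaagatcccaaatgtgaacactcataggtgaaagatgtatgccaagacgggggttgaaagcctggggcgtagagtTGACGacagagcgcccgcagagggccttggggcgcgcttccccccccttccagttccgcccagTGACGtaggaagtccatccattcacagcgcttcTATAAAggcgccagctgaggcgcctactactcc
Dusp1, chr17:26508473-26508722, minus strand: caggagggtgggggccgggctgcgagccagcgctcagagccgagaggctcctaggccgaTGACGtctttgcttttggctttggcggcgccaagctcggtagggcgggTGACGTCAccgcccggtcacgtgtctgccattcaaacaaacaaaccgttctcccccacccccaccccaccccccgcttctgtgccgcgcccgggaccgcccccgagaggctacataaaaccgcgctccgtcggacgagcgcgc
Jun, chr4:95052223-95052472, minus strand: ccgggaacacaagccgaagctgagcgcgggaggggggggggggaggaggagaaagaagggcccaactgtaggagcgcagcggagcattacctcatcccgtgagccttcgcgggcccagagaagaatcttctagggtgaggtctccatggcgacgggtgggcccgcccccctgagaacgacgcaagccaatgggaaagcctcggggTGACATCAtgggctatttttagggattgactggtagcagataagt
Junb, chr8:84978749-84978998, minus strand: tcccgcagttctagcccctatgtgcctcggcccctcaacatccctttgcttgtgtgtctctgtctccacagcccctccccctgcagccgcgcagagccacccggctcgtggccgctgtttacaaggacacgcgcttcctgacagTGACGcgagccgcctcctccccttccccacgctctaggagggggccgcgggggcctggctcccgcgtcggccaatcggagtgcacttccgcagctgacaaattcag

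Promoter entries were matched for 8 of the 10 members. The CRE core was found in 7 of these 8 (Fos, Fosb, Junb, Atf3, Egr2, Nr4a1 and Dusp1) and in 17.8% of 32851 promoters of the same length. Egr2 has 5 listed starts and was counted with a match at any of them (3 of 5), while the shares are per promoter and the other members have 1 start. In Fos it began 129 and 66 bases before the start, with a TATAAA match 33 bases before it, and TATAAA was held by 12.4% of promoters. In Dusp1 the full palindrome TGACGTCA began 143 bases before the start, a match held by 1.55% of promoters and by no other member. Jun held no CRE core but a TGACATCA match 45 bases before the start, which 2.93% of promoters hold, and the single core of Junb began 106 bases before its start. Nr4a1 held 4 cores, at 233, 213, 69 and 40 bases, Fosb 1 at 60 bases and Atf3 1 at 7 bases. Egr2 held the CArG box, the site of SRF, at 4 of its 5 starts, but not at the first listed, and 1.47% of promoters hold it. TGACTCA was found in 0 of the 8, against 4.46% of promoters. A match is a run of letters, not a shown binding site.

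The arrays fell into a one-allele set (single-Stat5b and single-Stat5a) and a two-allele set (Stat5a-/- and Stat5ab+/null), and the actin control's signal at its 3' end minus that at its 5' end, which is larger where labelled RNA is shorter, was 2.16 to 3.78 on the log2 scale in the one-allele arrays and 0.13 to 0.27 in the two-allele arrays. Allele total and array set cannot be told apart, so genotypes are compared within a set. For Stat5a-/- minus Stat5ab+/null the Stat5a probe sets differed by 0.39 and 0.56 and the Stat5b probe sets by -0.25 and -0.31 (limma adjusted p = 1 for each). All 4 go against the allele numbers of the label, so these are called the arrays labelled Stat5a-/-. Sample titles hold the letters ABB for these arrays and AAB for Stat5ab+/null, which, read as allele counts, would not match the genotype labels, and genotypes are given as labelled. The position of these probes relative to the deletion is not known here. In single-Stat5b against single-Stat5a the Stat5a probe sets differed by -1.23 (adjusted p = 0.00251) and -0.24 (adjusted p = 0.814). Luminal and basal epithelial markers, all 6 of 6 each, averaged 11.9 to 12.9 and 11.3 to 11.9 in the 12 arrays, as fits mammary tissue. Markers of other tissues varied between mice. The 4 measured B cell markers averaged 8.88, 7.90 and 7.63 in single-Stat5b, 7.31, 7.34 and 8.69 in single-Stat5a, 7.10, 7.15 and 12.4 in the arrays labelled Stat5a-/-, and 8.32, 12.7 and 10.4 in Stat5ab+/null. The 6 skeletal muscle markers averaged 7.60, 8.33 and 10.6 in single-Stat5b, 10.8, 13.7 and 9.80 in single-Stat5a, 6.62, 6.48 and 10.1 in the arrays labelled Stat5a-/-, and 6.72, 9.01 and 6.22 in Stat5ab+/null. In whole tissue, fewer cells of a type and less RNA per cell cannot be told apart.

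All values below are RMA log2 signals, so 1 unit is a doubling of signal, and arrays are given in the order 1, 2, 3 of each genotype. Fos, the AP-1 partner that cannot pair with itself, stood at 10.75, 10.59 and 10.33 in single-Stat5b and at 9.97, 9.90 and 11.50 in single-Stat5a. It stood at 11.35, 11.26 and 9.48 in the arrays labelled Stat5a-/- and at 11.67, 11.53 and 10.36 in Stat5ab+/null. The groups overlapped within both sets, and in the two-allele set array 3 of each genotype was the low one. The genotype means were 10.56 ± 0.21 in single-Stat5b, 10.46 ± 0.91 in single-Stat5a, 10.70 ± 1.05 in the arrays labelled Stat5a-/- and 11.19 ± 0.72 in Stat5ab+/null (SD, n = 3 each). In the order of these levels, highest in Stat5ab+/null and lowest in single-Stat5a, neighbours did not differ beyond their spread. The order crosses the array sets, so it is not one by allele number. Fosb, a close relative of Fos, had the lowest signal relative to the filter: 6.79, 6.25 and 5.99 in single-Stat5b, 5.21, 5.49 and 7.23 in single-Stat5a, 5.85, 5.90 and 5.75 in the arrays labelled Stat5a-/-, and 6.84, 5.99 and 5.82 in Stat5ab+/null. Only single-Stat5a 3, single-Stat5b 1 and 2, and Stat5ab+/null 1 lay above the filter level of 6.04.

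**Figure D1:**
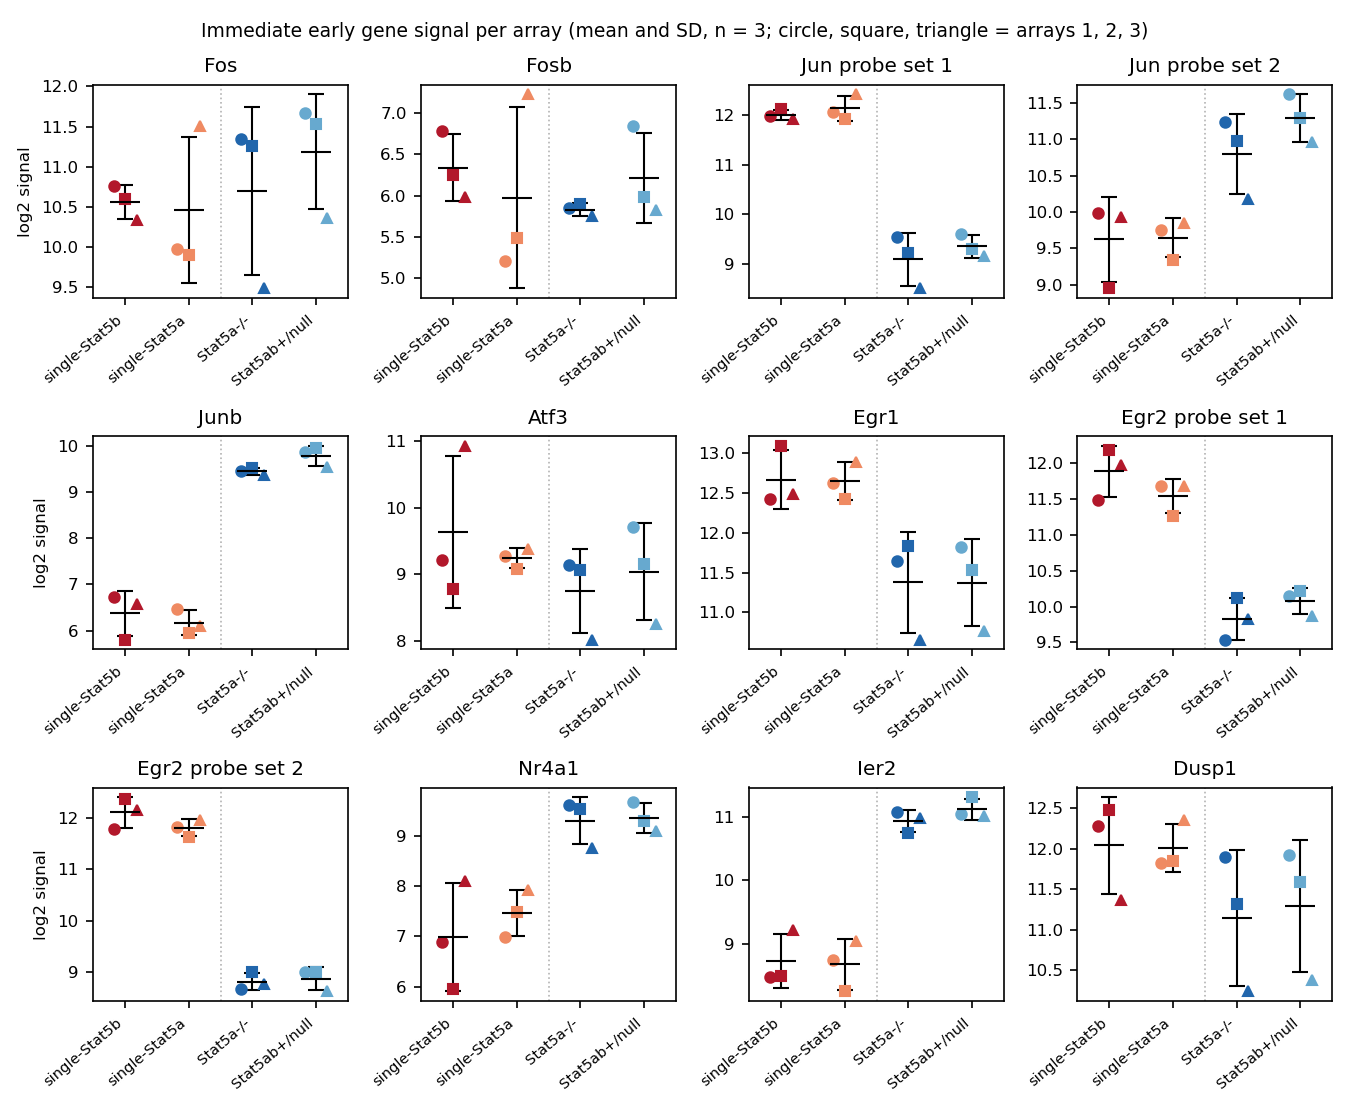
Log2 signal (vertical axes) of each of the 12 probe sets in each array, with mean and SD of 3 arrays per genotype (horizontal axes). Within each array set the genotypes overlap for 11 or more of the 12 probe sets, Junb in the two-allele set being the exception, while both Jun probe sets, Junb, Egr1, both of Egr2, Nr4a1 and Ier2 separate the sets.

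Jun, the AP-1 subunit that can pair with itself and with FOS, was read by probe sets that behaved differently between the sets. Probe set 1 (1448694_at) stood at 11.98, 12.11 and 11.91 in single-Stat5b and 12.05, 11.93 and 12.42 in single-Stat5a, against 9.54, 9.23 and 8.51 in the arrays labelled Stat5a-/- and 9.61, 9.30 and 9.17 in Stat5ab+/null. Probe set 2 (1417409_at) stood at 9.99, 8.95 and 9.93 in single-Stat5b and 9.75, 9.34 and 9.85 in single-Stat5a, against 11.24, 10.98 and 10.19 in the arrays labelled Stat5a-/- and 11.62, 11.30 and 10.97 in Stat5ab+/null. Probe set 1 was higher in every one-allele array and probe set 2 was lower in every one-allele array. Junb, which often opposes JUN at shared targets, stood at 6.73, 5.80 and 6.58 in single-Stat5b and 6.47, 5.95 and 6.10 in single-Stat5a, against 9.47, 9.53 and 9.38 in the arrays labelled Stat5a-/- and 9.87, 9.96 and 9.55 in Stat5ab+/null. Its order of levels was Stat5ab+/null, the arrays labelled Stat5a-/-, single-Stat5b and single-Stat5a from high to low. That order crosses the array sets, so it is not one by allele number. Within a set the difference did not pass the test given below. Atf3, a stress-induced bZIP factor that mostly represses, stood at 9.21, 8.77 and 10.93 in single-Stat5b, 9.28, 9.08 and 9.39 in single-Stat5a, 9.14, 9.07 and 8.02 in the arrays labelled Stat5a-/-, and 9.71, 9.16 and 8.26 in Stat5ab+/null. Single-Stat5b 3 was its highest array.

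Egr1, a zinc finger factor induced by growth factors, stood at 12.42, 13.09 and 12.49 in single-Stat5b, 12.63, 12.42 and 12.89 in single-Stat5a, 11.65, 11.83 and 10.66 in the arrays labelled Stat5a-/-, and 11.82, 11.54 and 10.76 in Stat5ab+/null. Every one-allele array lay above every two-allele array. Egr2, its relative known from Schwann cells and lymphocytes, was read by probe sets of like direction. Probe set 1 (1427683_at) stood at 11.49, 12.20 and 11.98 in single-Stat5b and 11.68, 11.26 and 11.69 in single-Stat5a, against 9.54, 10.13 and 9.83 in the arrays labelled Stat5a-/- and 10.15, 10.21 and 9.87 in Stat5ab+/null. It averaged 11.89 ± 0.36 in single-Stat5b and 11.55 ± 0.24 in single-Stat5a, against 9.83 ± 0.30 in the arrays labelled Stat5a-/- and 10.08 ± 0.19 in Stat5ab+/null (SD, n = 3 each), so the sets stood apart. Probe set 2 (1427682_a_at) stood at 11.80, 12.39 and 12.16 in single-Stat5b and 11.83, 11.64 and 11.97 in single-Stat5a, against 8.67, 8.99 and 8.76 in the arrays labelled Stat5a-/- and 8.99, 8.99 and 8.62 in Stat5ab+/null. It averaged 12.12 ± 0.30 in single-Stat5b and 11.81 ± 0.16 in single-Stat5a, against 8.81 ± 0.17 in the arrays labelled Stat5a-/- and 8.87 ± 0.22 in Stat5ab+/null (SD, n = 3 each). For both, the genotypes of a set overlapped.

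Nr4a1, an orphan nuclear receptor (Nur77), stood at 6.89, 5.96 and 8.11 in single-Stat5b and 7.00, 7.49 and 7.93 in single-Stat5a, against 9.62, 9.54 and 8.77 in the arrays labelled Stat5a-/- and 9.68, 9.30 and 9.11 in Stat5ab+/null. Its spread was wider in single-Stat5b, with an SD of 1.08, than in the other genotypes, with SDs of 0.29 to 0.47. Ier2, a small nuclear protein of the early response, stood at 8.48, 8.50 and 9.22 in single-Stat5b and 8.74, 8.25 and 9.04 in single-Stat5a, against 11.08, 10.74 and 10.98 in the arrays labelled Stat5a-/- and 11.04, 11.31 and 11.00 in Stat5ab+/null. Its means were 8.73 ± 0.42 in single-Stat5b and 8.68 ± 0.40 in single-Stat5a, against 10.93 ± 0.18 in the arrays labelled Stat5a-/- and 11.12 ± 0.17 in Stat5ab+/null, and every one-allele array lay below every two-allele array. Dusp1, the MAP kinase phosphatase, stood at 12.28, 12.48 and 11.36 in single-Stat5b, 11.82, 11.85 and 12.35 in single-Stat5a, 11.89, 11.32 and 10.24 in the arrays labelled Stat5a-/-, and 11.92, 11.59 and 10.37 in Stat5ab+/null. As for Fos, array 3 was the lowest of each two-allele genotype, and the arrays of all 4 genotypes overlapped.

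Between the arrays labelled Stat5a-/- and Stat5ab+/null, which differ in how 2 intact alleles are divided between the genes, 0 of the 12 member probe sets passed the test (limma, adjusted p = 1 for each), and 0 had an unadjusted p under 0.05. Over all probe sets 0.00952% passed and 2.84% had an unadjusted p under 0.05. Of the 12 differences 11 were below 0, with a median over the 10 lead probe sets (each gene's brighter one) of -0.25, against -0.05 over all probe sets. The members were read in the same mice, and Jun and Egr2 count through 2 probe sets each. Their signs are thus not independent, and this count of signs and those of the comparisons below carry no test. Fos differed by -0.49 (SE 0.53, 95% interval -1.63 to 0.65), Jun by -0.26 and -0.49 in probe sets 1 and 2, and Egr1 by 0.01. Junb differed by -0.34 (SE 0.24, interval -0.86 to 0.19), and it was the 1 member probe set of 12 whose groups did not overlap, being lower in all 3 arrays labelled Stat5a-/-. Over all probe sets 17.5% did not overlap, and 11.3% were lower without overlap. These intervals reach a 3.10-fold lower signal for Fos, so differences of this size are not excluded. The median moved with single arrays, from -0.41 to 0.05 with 1 array left out. It was 0.05 without Stat5a-/- 3, which keeps array 3 of Stat5ab+/null, where Fos was low too. Fos (0.12), Jun probe set 1 (0.03), Atf3 (0.06), Nr4a1 (0.22) and Dusp1 (0.31) were then above 0. Without both arrays 3, Fos, Dusp1 and Junb were below 0, as given below.

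Between single-Stat5b and single-Stat5a, which differ in the gene of the 1 remaining allele, 0 of the 12 passed (limma, adjusted p = 0.652 to 0.991), and 0 had an unadjusted p under 0.05. Over all probe sets 2.89% passed and 11.8% had an unadjusted p under 0.05. The differences lay above 0 for 9 and below 0 for 3, with a lead median of 0.08, against -0.00 over all probe sets. Nr4a1 differed by -0.48 (SE 0.44, 95% interval -1.44 to 0.47) and Atf3 by 0.39 (SE 0.51, interval -0.70 to 1.48), and both moved with single mice. Without single-Stat5b 3, Atf3 differed by -0.26 and Nr4a1 by -1.05 (adjusted p = 0.108). Without single-Stat5b 2, Nr4a1 differed by 0.03. Fos differed by 0.10 (SE 0.53), and by 0.62 without single-Stat5a 3. The groups overlapped for all 12 probe sets, where 11.5% of all probe sets did not overlap.

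**Figure D2:**
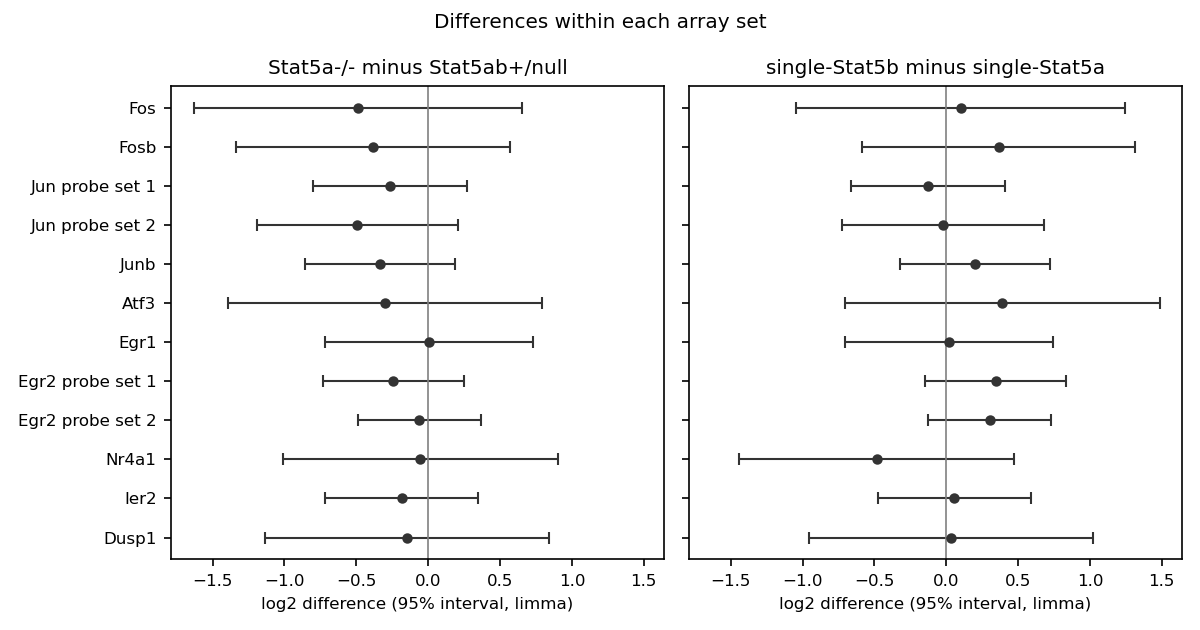
Log2 difference with its 95% limma interval (horizontal axes) for each of the 12 probe sets (vertical axes), for single-Stat5b minus single-Stat5a and for the arrays labelled Stat5a-/- minus Stat5ab+/null. Every interval spans 0, and the point estimates lie between -0.49 and 0.39.

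The test of whether the difference between single-Stat5b and single-Stat5a departed from that between the arrays labelled Stat5a-/- and Stat5ab+/null was passed by 0 of the 12, and by 1.09% of all probe sets. The smallest unadjusted p was 0.0902, for Egr2 probe set 1, whose difference of differences was 0.59 (limma adjusted p = 0.807). Of the 12 values 11 lay above 0, with a lead median of 0.39, against 0.05 over all probe sets. With 1 array left out this median ran from 0.12, without Stat5a-/- 3, to 0.65.

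For Fos, Atf3, Dusp1, Nr4a1 and Fosb the SD between mice of 1 genotype (0.79, 0.75, 0.67, 0.65 and 0.65, pooled) exceeded the genotype difference in both sets. The same held for Egr1 (0.47), Jun probe set 1 (0.32) and Ier2 (0.31). The pooled SD stood at the 98.5th percentile of all probe sets for Fos, at 98.3 for Atf3, 97.4 for Dusp1, 97 for Nr4a1 and 96.9 for Fosb, while Egr2 probe set 2 stood at 24.7. Within the two-allele set 8 of the 12 lay above the 90th percentile, and within the one-allele set 4 did. In the two-allele set much of it came from array 3 of both genotypes. Stat5a-/- 3 was the lowest of the 6 arrays for 9 of 12 member probe sets (all but both of Egr2 and Ier2), where it was the lowest for 24.4% of all probe sets. Stat5ab+/null 1 was the highest for 7 of 12, where 20.7% of all probe sets were.

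Array 3 lay below the mean of the other arrays of its genotype by a log2 difference of -1.82 in the arrays labelled Stat5a-/- and -1.24 in Stat5ab+/null for Fos. The same gaps were -1.37 and -1.38 for Dusp1, -1.09 and -1.18 for Atf3, and -1.09 and -0.91 for Egr1. They were smaller for Junb (-0.12 and -0.37) and Fosb (-0.12 and -0.59). Fosb lay under the filter level in every array labelled Stat5a-/-. Array 3 was the lowest of both genotypes at once for the same 9 member probe sets, 75% of them, against 17.1% of all probe sets. These arrays were not chosen by a label, so the counts describe them and carry no test. Several marker means were also lowest in array 3 of both genotypes. The 4 measured white adipocyte markers averaged 13.7, 13.8 and 13.1 in the arrays labelled Stat5a-/- and 13.7, 13.6 and 13.3 in Stat5ab+/null. Among them only Lep, the leptin gene, was lowest in array 3 of both genotypes. It stood at 11.48, 11.80 and 9.45 in the arrays labelled Stat5a-/- and 11.55, 11.46 and 9.81 in Stat5ab+/null. Fabp4 was highest in array 3 of the arrays labelled Stat5a-/- (14.67), and Adipoq (14.59) and Cidec (14.10) were highest in array 3 of Stat5ab+/null. The 4 macrophage markers averaged 12.2, 12.0 and 11.8 in the arrays labelled Stat5a-/- and 12.3, 12.1 and 11.9 in Stat5ab+/null. Among them Csf1r and Mrc1 were lowest in array 3 of both genotypes. Cd68 was highest in array 3 of the arrays labelled Stat5a-/- (11.72), and Adgre1 was lowest in array 2 of Stat5ab+/null (10.65, against 10.82 in array 3). The basal markers averaged 11.9, 11.9 and 11.5 in the arrays labelled Stat5a-/- and 11.8, 11.5 and 11.3 in Stat5ab+/null. Among them Acta2 and Krt5 were lowest in array 2 of Stat5ab+/null, not in array 3. The luminal markers averaged 12.90, 12.87 and 12.68 in the arrays labelled Stat5a-/- and 12.93, 12.78 and 12.77 in Stat5ab+/null. B cell and muscle means were highest in array 3 of the arrays labelled Stat5a-/- and in array 2 of Stat5ab+/null. The actin 3' minus 5' signal was highest in array 3 of each genotype, at 0.13, 0.16 and 0.16 in the arrays labelled Stat5a-/- (0.1606 for array 2 and 0.1612 for array 3) and 0.19, 0.20 and 0.27 in Stat5ab+/null. The same measure of the Gapdh control was instead highest in array 2 of each genotype. It was -0.101, 0.0016 and -0.0099 in the arrays labelled Stat5a-/- and -0.0455, 0.052 and 0.0222 in Stat5ab+/null. The part of these measures in the low Fos and Dusp1 signals was not tested. Without both arrays 3, the arrays labelled Stat5a-/- differed from Stat5ab+/null by -0.29 in Fos, -0.15 in Dusp1 and -0.42 in Junb, and again 0 of 12 passed.

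In single-Stat5a most members moved together: array 3 lay above the genotype mean for every member probe set but Junb (-0.08). Array 2 lay below it for every one but Nr4a1 (0.02). In single-Stat5b the members went different ways. Single-Stat5a 3 was the highest of the 6 arrays for Fos, Fosb and Jun probe set 1, lying 1.57 above the mean of the other arrays of its genotype for Fos and 1.88 for Fosb. Single-Stat5b 3 was the highest for Atf3, Nr4a1 and Ier2, with gaps of 1.94 for Atf3 and 1.69 for Nr4a1. Single-Stat5b 2 was the highest for Egr1, both Egr2 probe sets and Dusp1 and the lowest for Jun probe set 2, Junb, Atf3 and Nr4a1. Over all probe sets, single-Stat5a 3 was the highest for 12.3%, single-Stat5b 3 for 24.7% and single-Stat5b 2 for 23.2%. Single-Stat5b 2 was the lowest for 32.3%. The 3 of 12 members highest in single-Stat5b 3 and the 4 lowest in single-Stat5b 2 lie near these shares and are no result about the members. Single-Stat5a 3 had an actin 3' minus 5' signal of 3.07, where the other arrays of its genotype had 2.42 and 2.16, and the part of this in its Fos signal was not tested. That different members were high in different single-Stat5b mice describes these arrays and is not shown to be particular to the members.

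**Figure D3:**
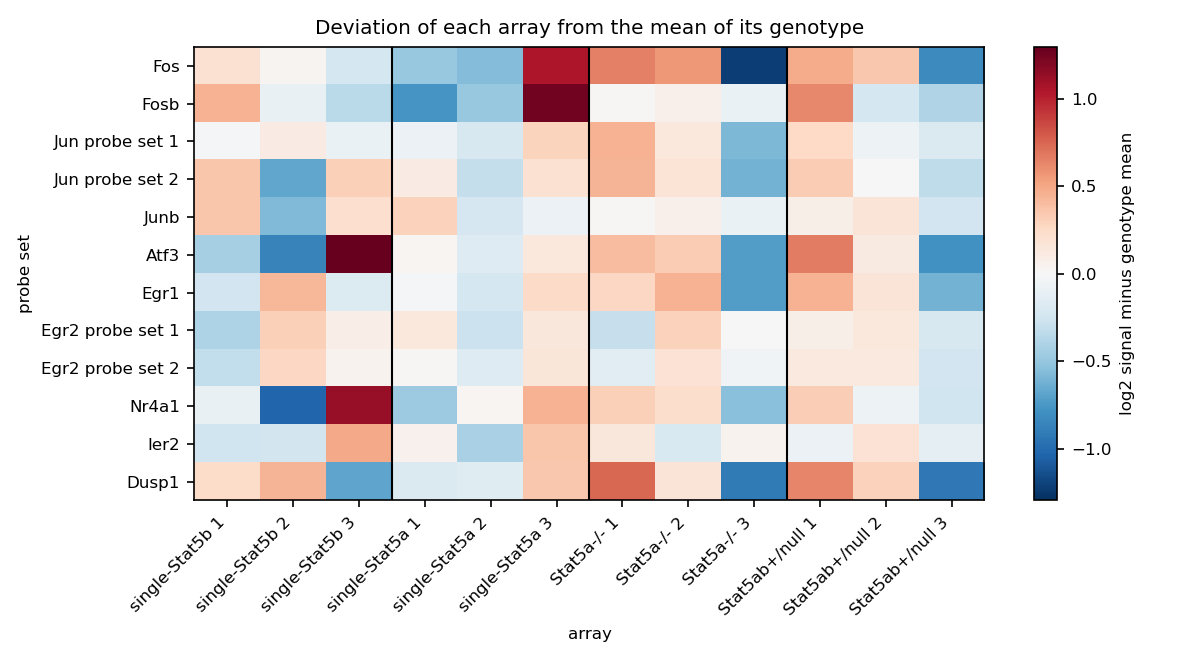
Log2 signal minus the mean of its genotype (colour) for each of the 12 probe sets (vertical axis) in each array (horizontal axis). Arrays 3 of both two-allele genotypes are low for Fos (-1.21 and -0.83) and for Dusp1, and single-Stat5a 3 is high for Fos and Fosb.

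Genes whose array-to-array pattern was most like that of Fos were sought among 14188 genes by the root mean square difference of signals centred on their genotype means over the 12 arrays, where Fos itself had a root mean square of 0.64. The nearest non-members were Speer4cos (0.31), Alox15 (0.31), Errfi1 (0.32), Chil1 (0.33) and Fbln7 (0.33). Errfi1 is a feedback inhibitor of the EGF receptor that is itself induced early, and Alox15 is a lipoxygenase. Errfi1 stood at 12.94, 13.03 and 12.65 in single-Stat5b, 12.91, 12.23 and 13.03 in single-Stat5a, 12.15, 11.87 and 10.61 in the arrays labelled Stat5a-/-, and 12.43, 11.93 and 10.91 in Stat5ab+/null, with array 3 again the low one in both two-allele genotypes. Among the members Dusp1 was nearest (0.34, with 6 non-member genes nearer), followed by Egr1 (0.39, with 15 nearer) and Jun probe set 1 (0.43, with 32 nearer). Junb (0.65, with 4633 nearer) and Atf3 (0.66, with 5257 nearer) were no nearer than a flat profile would be.

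Between the one-allele and the two-allele arrays, 9 of 12 member probe sets passed (limma), of which 5 were higher and 4 lower, where 73.6% of all probe sets passed, 38.1% higher and 35.5% lower. The groups did not overlap for 8 of 12, against 53.9% of all probe sets. Shares near these backgrounds are no result about the members, and allele total and array set cannot be told apart in it. Junb differed by -3.35 (SE 0.17, adjusted p = 2.51e-09). Its one-allele signals, 5.80 to 6.73, lay around the filter level of 6.04, so no fold is given. Ier2 differed by -2.32 (SE 0.17, adjusted p = 7.43e-08) and Nr4a1 by -2.11 (SE 0.31, adjusted p = 4.25e-05). Egr1 differed by 1.28 (SE 0.24, adjusted p = 0.000284), and Egr2 by 1.76 in probe set 1 and 3.13 in probe set 2 (adjusted p = 4.66e-07 and 8.62e-10). Fos (-0.43), Fosb (0.13) and Atf3 (0.55) did not pass. Fos passed in 1 of 22 alternatives, at -0.94 without both arrays 3 (limma adjusted p = 0.0128). That alternative was chosen after seeing the data. Leaving out 2 arrays that are low in Fos itself lowers the difference, so this pass carries no weight. Fos stood at -0.74 without Stat5a-/- 3 (adjusted p = 0.0527), -1.78 with the actin covariate (adjusted p = 0.29) and 0.00 with B cell and muscle means as covariates. Fosb turned to -1.90 with the actin covariate, and Atf3 to -0.32 with the B cell and muscle covariates, and neither passed. Dusp1 differed by 0.80 (adjusted p = 0.0386) and passed under 10 of 22 alternatives. With the actin 3' minus 5' signal as a covariate, Egr1 (1.45, limma adjusted p = 0.197) and Nr4a1 (-1.90, adjusted p = 0.202) no longer passed and Dusp1 stood at -0.05. This covariate does not overlap between the sets, so the fit can hardly tell it apart from the set. Calls over all probe sets fell with it too, as given below. The part of RNA length in these differences was therefore not tested. The same differences taken by genotype, single-Stat5b minus the arrays labelled Stat5a-/- and single-Stat5a minus Stat5ab+/null, were -3.09 and -3.62 for Junb and 1.29 and 1.27 for Egr1.

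**Figure D4:**
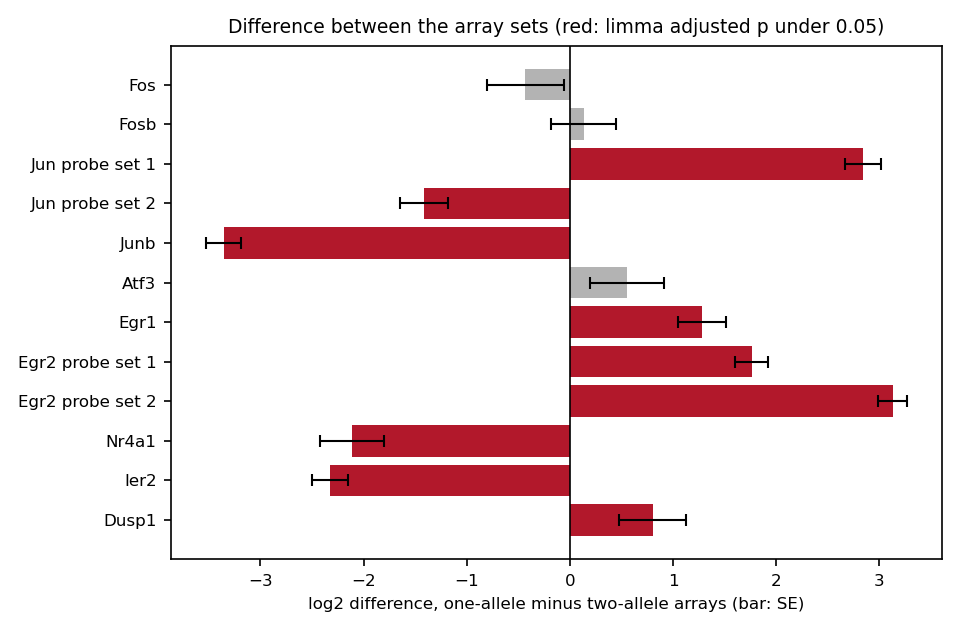
Log2 difference between one-allele and two-allele arrays (horizontal axis, bars show the SE) for the 12 probe sets (vertical axis), with those that pass limma in red. The values run from -3.35 for Junb to 3.13 for Egr2 probe set 2, and the Jun probe sets lie on opposite sides of 0.

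The probe sets of Jun gave opposite calls here: probe set 1 was 2.84 higher in the one-allele arrays (SE 0.18, adjusted p = 1.28e-08), and probe set 2 differed by -1.41 (SE 0.23, adjusted p = 9.26e-05). No direction can be given for Jun between the sets. Opposite calls by probe sets of 1 gene were found for 2682 of the 6836 genes with at least 2 probe sets, 39.2%. The probe sets of Egr2 were both higher but differed by 1.37 in the size of the difference. Within the sets the genotype differences of paired probe sets lay closer. Jun stood at -0.26 and -0.49, and Egr2 at -0.24 and -0.06, for the arrays labelled Stat5a-/- minus Stat5ab+/null. Egr2 stood at 0.34 and 0.30 for single-Stat5b minus single-Stat5a. Array by array the Jun probe sets were less alike in single-Stat5b, where probe set 1 minus probe set 2 ran from 1.98 to 3.16 (SD 0.68, n = 3).

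**Figure D5:**
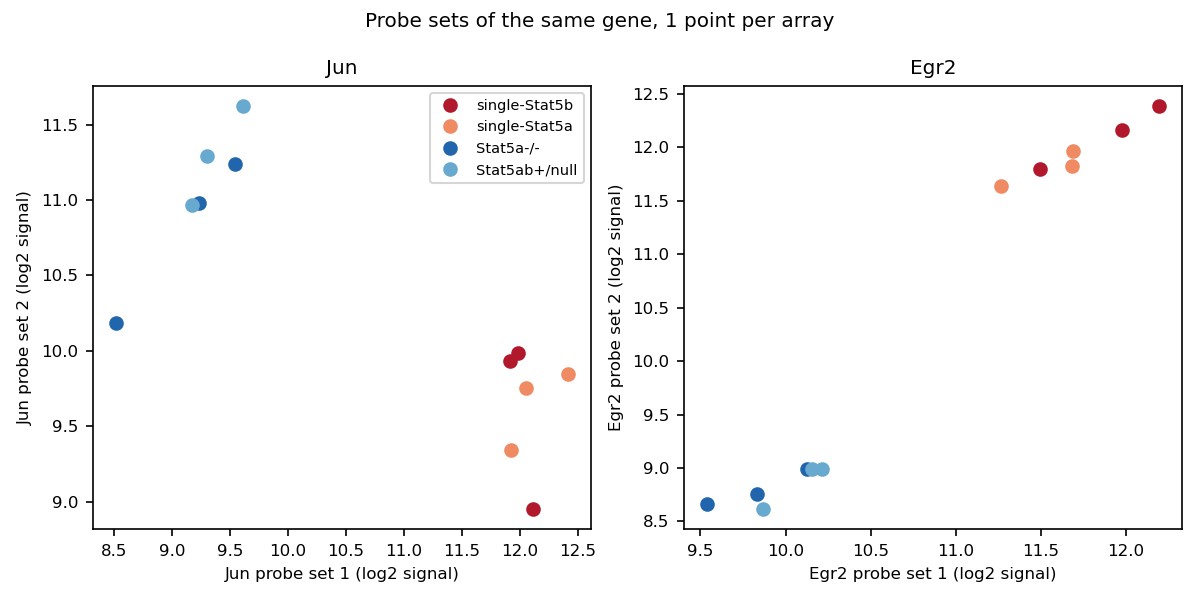
Log2 signal of probe set 2 (vertical axes) against probe set 1 (horizontal axes) of Jun and Egr2, 1 point per array, coloured by genotype. The one-allele arrays lie to the lower right of the two-allele arrays for Jun and to the upper right for Egr2.

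The wider pathway was read from 6 lists with 97 genes, of which 90 were tested through their brightest probe set. None of the 90 passed in either comparison within a set (limma), where 0.00952% and 2.89% of all probe sets passed. The unadjusted p was under 0.05 for 6 of them between the arrays labelled Stat5a-/- and Stat5ab+/null, against 2.84% of all probe sets. It was under 0.05 for 2 between single-Stat5b and single-Stat5a, against 11.8% of all probe sets. Between the array sets 75 of the 90 passed, 38 higher and 37 lower in the one-allele arrays, where 73.6% of all probe sets passed. Of the other immediate early transcription factors, 14 of 17 lay below 0 for the arrays labelled Stat5a-/- minus Stat5ab+/null, with a median of -0.23, from -0.84 for Klf2 and -0.56 for Klf4, both Krüppel-like factors, to 0.20 for Egr4 and 0.11 for Egr3. Of the other immediate early genes, 26 of 27 lay below 0 (median -0.18), from -0.91 for Gadd45b, a stress-induced growth arrest gene, and -0.56 for Ier5, with Ier3 at 0.09 above it. The median over all probe sets was -0.05. All listed genes were read in the same mice, so their signs are not independent and the counts carry no test. The MAP kinase feedback genes lay below 0 for 8 of 12 (median -0.22), with Spry1 at -0.59 and Dusp2 at -0.44, against Spred1 at 0.13 and Dusp14 at 0.10. The kinases, receptors and factors upstream lay below 0 for 9 of 15 (median -0.05), with Mrtfa at -0.45, Map2k2 at -0.37, Rps6ka5 at 0.29 and Egfr at 0.21. The bZIP partners lay below 0 for 7 of 9 (median -0.08), with Batf3 at -0.61, Jdp2 at -0.44, Maf at 0.19 and Atf7 at 0.10. The heat shock genes, read as a sign of stress, lay below 0 for 7 of 10 (median -0.09), with Hspa1a and Hspa1b both at -0.45, Hsp90aa1 at 0.17 and Dnaja1 at 0.09. Hspa1a and Hspa1b are near-identical copies, so their signals may be shared.

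For single-Stat5b minus single-Stat5a the 90 genes divided into 46 above and 44 below 0, and the list medians ran from -0.09 to 0.15. The largest differences were Spry1, an inhibitor of receptor tyrosine kinase signalling, at -0.92 (limma adjusted p = 0.101) and Plk2, a polo-like kinase, at 0.78 (adjusted p = 0.099). Among the transcription factors Maff (-0.65) and Klf2 (-0.33) were lowest and Myc (0.34) and Klf10 (0.32) highest. Other early genes with low values were Zfp36 (-0.37), which destabilises short-lived transcripts, and Hbegf (-0.32), and Ier5l stood at 0.43. Dusp10 stood at -0.50, Dusp5 at 0.29 and Spred2 at 0.28. Upstream, Mapk8 stood at -0.25, Elk1 at -0.24, Egfr at 0.30 and Elk3 at 0.19, and among the bZIP partners Atf4 stood at -0.18, Mafk at -0.16, Batf at 0.40 and Atf7 at 0.25. Heat shock genes ran from Hspe1 (-0.37) and Hspb1 (-0.30) to Hspa1b (0.57) and Hspa1a (0.37).

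The low position of both arrays 3 was shared by parts of these lists. Both were the lowest of their genotype for 13 of 27 other immediate early genes (48.1%), 5 of 17 transcription factors (29.4%) and 5 of 9 bZIP partners (55.6%). The counts were 1 of 12 feedback genes, 2 of 15 upstream genes and 1 of 10 heat shock genes, where 17.1% of all probe sets were so ordered.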

How the data were processed

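Biotin-labelled cRNA made from 6 ug of Trizol-extracted total RNA was hybridized to whole-genome mouse arrays, per the labels' protocols. The deposited values are log2 signals per probe set (45101 probe sets). Per the submitters' processing notes RMA and Partek were used, with versions unstated. No array was dropped. Probe sets were named by the platform annotation: 34945 named 1 gene, 932 several and 9160 other than the 64 controls none. No symbol of a named gene was changed by RefSeq. No genome build is given for the arrays, and promoters come from RefSeq tables. Non-control probe sets with a mean at or above the 30th percentile entered a limma fit (version 3.58.1, R 4.3.3) with a mean for each genotype and a shared spread (2-sided, Benjamini-Hochberg over 31526 probe sets, call at an adjusted p under 0.05). The smallest p of an exact permutation test of 3 against 3 is 0.1. The fit was tested on simulated data. The number of arrays limits the precision. Replicates were numbered in record order. Members and lists were chosen with earlier results of these data known, so they give no independent support. Genes named are all members, the 2 largest rises and falls per list and comparison, and the 5 non-members nearest to Fos. Some listed genes are not reported here.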

Additional observations from a re-analysis of the deposited data

How the results depend on the processing

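In both comparisons within a set 0 of 12 member probe sets passed under each of 24 alternatives, and 0 passed the test of their difference under 23. Between the sets 6 to 9 passed, against 9. Signs of members that did not pass turned. For the arrays labelled Stat5a-/- minus Stat5ab+/null, Nr4a1 (-0.05) became 0.032 with quantile normalization, 0.050 with array weights and 0.087 without both arrays 3, an alternative chosen after seeing the data, and Egr1 (0.01) became -0.15 with B cell and muscle means as covariates. For single-Stat5b minus single-Stat5a, array weights gave -0.15 for Egr1 and -0.12 for Ier2, the actin covariate -0.028 for Fos and -0.046 for Dusp1, and the marker covariates -0.42 for Fos, -0.25 for Fosb, -0.083 for Egr1 and -0.26 for Dusp1. Leaving out 1 array gave ranges across 0 for the first comparison of -0.90 to 0.12 in Fos, -0.49 to 0.026 in Jun, -0.69 to 0.065 in Atf3, -0.30 to 0.37 in Egr1, -0.21 to 0.22 in Nr4a1 and -0.61 to 0.31 in Dusp1. For the second they were -0.18 to 0.62 in Fos, -0.018 to 0.54 in Fosb, -0.23 to 0.015 in Jun, -0.26 to 0.82 in Atf3, -0.19 to 0.14 in Egr1, -1.05 to 0.029 in Nr4a1, -0.19 to 0.24 in Ier2 and -0.19 to 0.37 in Dusp1. The lead median between the sets (0.34) was -0.92 with the actin covariate and 0.19 to 0.72 with 1 array left out.

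Calls over all probe sets moved more. For the arrays labelled Stat5a-/- minus Stat5ab+/null (3) they were 1 with 1 probe set per gene, 1 with their mean, 430 with array weights, 0 with marker covariates, 5 with only the groups compared, 1 without both arrays 3 and 0 to 6 with 1 array left out. For single-Stat5b minus single-Stat5a (912) they were 534 with a filter at the 50th percentile, 310 and 320 with 1 value per gene (brightest or mean), 521 with marker covariates, 504 with only the groups compared and 652 to 2017 with 1 array left out. For the difference of differences (345) they were 202, 110, 115 and 191 in the same order of the first 4 settings, 1018 with array weights, 184 without both arrays 3 and 233 to 521 with 1 array left out. Between the sets they were 10040 and 9643 with 1 value per gene and 8660 with the actin covariate, against 23208. Fewer features were tested with 1 value per gene or the stricter filter, which also dropped Fosb. The cause of the other changes was not tested. No paired analysis was possible because replicate numbers were given in record order and pair no mice.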
